A study of Bos taurus with 11 samples.

Results

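The lower part of glycolysis and lactate dehydrogenase were followed through 10 genes, ALDOA, ALDOC, TPI1, GAPDH, PGK1, PGAM1, ENO1, PKM (named PKM2 on the array), LDHA and LDHB, in peripheral blood mononuclear cells of cattle. Every probe whose gene name on the array was one of these was taken, which gave 42 of the 43653 probes and 10 of 24983 gene and transcript names, and each probe was kept apart. The samples were 5 arrays of female Ladakhi cattle, native to high altitude, and 6 arrays of female Sahiwal cattle, a zebu breed from low altitude. The labels read high altitude for all Ladakhi arrays, and low altitude and basal for all Sahiwal arrays. Peripheral blood mononuclear cells are the lymphocytes and monocytes of the blood. No treatment, age, place or time of blood sampling was given for either breed, and the labels number the arrays within each breed, here taken as 1 animal each. Where these numbers do not stand for separate animals, the p-values measure only the spread between the arrays.

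Glycolysis splits glucose into triose phosphates and turns these into pyruvate. Aldolase and triosephosphate isomerase make the trioses, glyceraldehyde-3-phosphate dehydrogenase and phosphoglycerate kinase gain NADH and ATP from them, and phosphoglycerate mutase, enolase and pyruvate kinase carry the product on to pyruvate with a further gain of ATP. Lactate dehydrogenase is a tetramer of LDHA and LDHB chains that converts pyruvate and lactate into each other and so renews NAD+. LDHA predominates in muscle and in proliferating lymphocytes, and LDHB in the heart. In human and mouse cells many of these genes are targets of the hypoxia-inducible factors (HIF), among them ALDOA, PGK1, ENO1 and LDHA.

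The signal is the brightness of a probe after labelling of the RNA with Cy3, and a level is its log2 relative to the array's 75th percentile over the 2703 probes that lay well above background on all 11 arrays. The Ladakhi arrays were dimmer, with 4243 to 6608 of 43803 spots well above background, against 17517 to 20574 on the Sahiwal arrays. The detection limit of an array, its dimmest level to pass the background test, averaged -3.60 for Ladakhi and -8.22 for Sahiwal, so a probe dim in both breeds could be measured only in Sahiwal. Spots marked saturated numbered 0 on the Ladakhi arrays and 71 to 228 on the Sahiwal arrays. Each of the 4 slides held a single breed, and scanner, image extraction version and labelled altitude also went with breed. In every difference below the animals' breed, their altitude and the platform therefore cannot be told apart. Measured below means that the spot passed Feature Extraction's background test on 4 or more arrays in Ladakhi and likewise in Sahiwal, and differences are Ladakhi minus Sahiwal on the log2 scale.

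Ladakhi cells had higher signals at probes of PKM, LDHA, GAPDH, TPI1 and ALDOA and lower signals at probes of ENO1, PGAM1 and LDHB. Of the 42 probes, 26 were measured in both breeds, and these came from 9 genes, as ALDOC had none. By limma with Benjamini-Hochberg adjustment over all 17862 probes tested, 6 of the 26 were higher in Ladakhi, 3 were lower and 17 did not pass an adjusted p of 0.05. Among all 4046 measured probes of the array 32.7% passed, 18.1% higher and 14.6% lower, so the share of 34.6% among the glycolytic probes lay near this background. Their median difference was 0.16, against -0.02 over all measured probes, with 15 differences above 0 and 11 below. The breeds did not overlap at 7 of the 26 probes, where 21.7% of all measured probes were without overlap. Differences ran from -2.60 at a probe of ENO1 to 2.40 at the probe of PKM. Of the 7 genes with several measured probes, 5 had differences of both signs. No gene had probes that passed in both directions, although TPI1 did where every probe of the array was tested, where dim signals were raised, with normexp background correction and with the slide as a random block. Each of these settings also made more calls over all measured probes than the main fit.

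**Figure D1:**
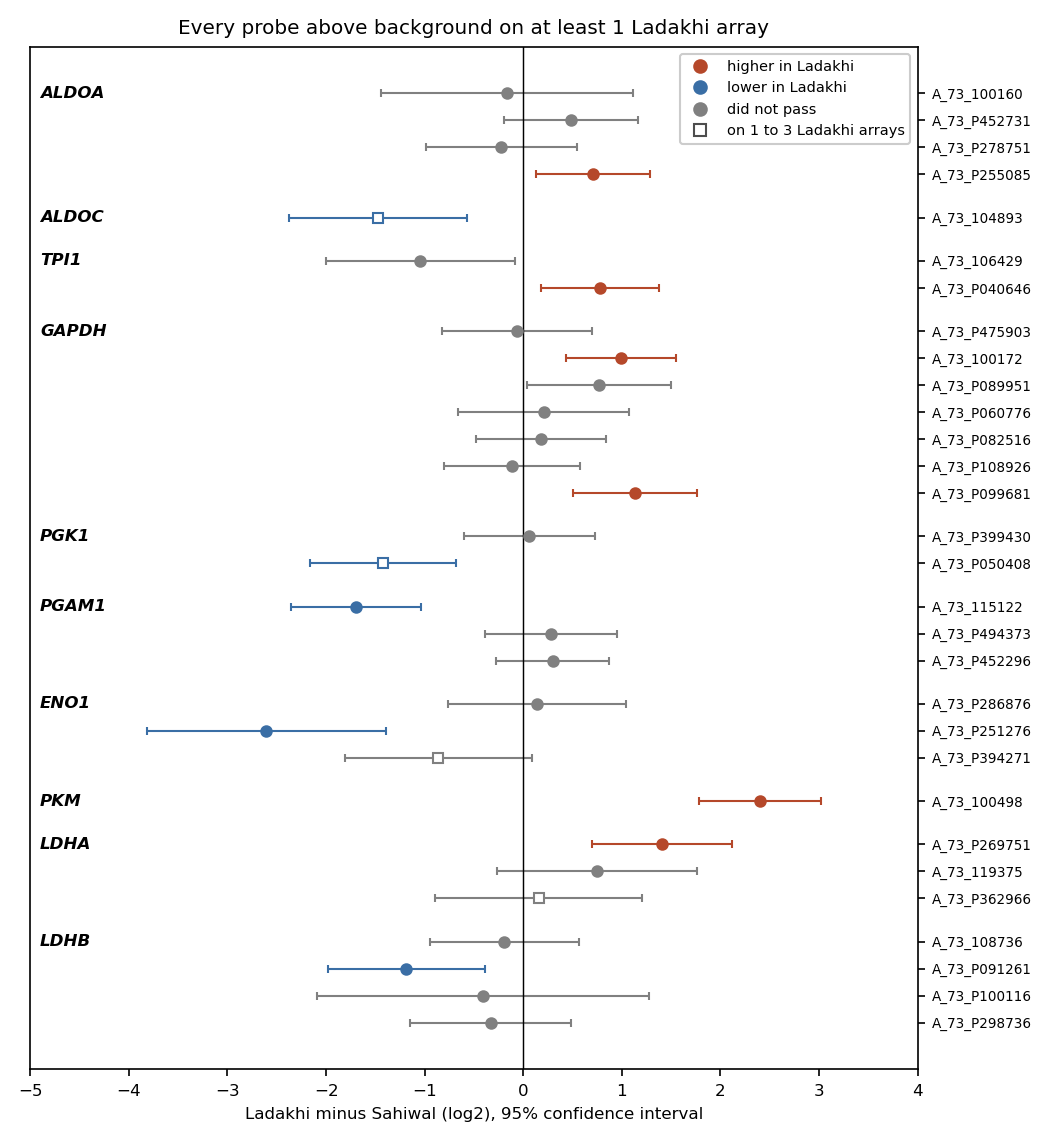
Difference between the breeds (Ladakhi minus Sahiwal, log2, horizontal axis) with its 95% confidence interval for each probe above background on at least 1 Ladakhi array, grouped by gene. Colour marks probes that passed an adjusted p of 0.05, and open squares mark the 4 probes on 1 to 3 Ladakhi arrays, which were not counted as measured. The PKM probe at 2.40 and the ENO1 probe at -2.60 lie farthest apart.

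Aldolase cleaves fructose-1,6-bisphosphate. ALDOA, the form of most cells, had 4 probes, all measured. The brightest, A_73_100160 (chromosome 25, 28026260 to 28026319, minus strand, on HGSC Btau_3.1, the build of all positions here), had levels of 1.22, 1.58, 1.46, 2.01 and -1.24 on the 5 Ladakhi arrays, against 0.47 to 1.89 (median 1.16) on the 4 Sahiwal arrays that kept a value, 2 spots having been marked as outliers. The difference was -0.16 (SE 0.59) and did not pass, with Ladakhi animal 5 far below the other Ladakhi animals. Only A_73_P255085, 1069 bases upstream of that probe on the genome, passed. It stood at -2.19, -1.90, -2.10, -2.11 and -2.18 in Ladakhi, against -3.22 to -2.19 (median -2.91) in Sahiwal. All 5 Ladakhi values lay within a narrow band just above the highest Sahiwal value, for a difference of 0.71 (SE 0.27, limma adjusted p = 0.0475). The call held only without Sahiwal animal 4 or 6 and was lost on leaving out any other array (0.62 to 0.83 over all 11 runs, adjusted p up to 0.0961). The other 2 probes had differences of 0.49 and -0.22, neither of which passed.

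ALDOC, the aldolase best known from the brain, was not measured in both breeds at any of its 3 probes. Its probe nearest the 3′ end, A_73_104893, lay above background on 3 Ladakhi arrays and on all 6 Sahiwal arrays. The levels were -3.32, -4.52, -2.20, -2.11 and -3.39 in Ladakhi, against -2.16 to -1.09 (median -1.63) in Sahiwal. The difference was -1.48 (SE 0.42, limma adjusted p = 0.0128), and -1.17 (limma adjusted p = 0.00364) when signals not above background were raised to the lowest signal above background of their array. The call was lost under cyclic loess (-1.25, limma adjusted p = 0.0507) and with normexp background correction (-0.59, limma adjusted p = 0.0591). Of all 3768 probes above background on 1 to 3 Ladakhi arrays and at least 4 Sahiwal arrays, 26.6% were lower in Ladakhi. The other 2 ALDOC probes lay above background on all 6 Sahiwal arrays and on 0 Ladakhi arrays.

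TPI1 encodes triosephosphate isomerase, which converts the trioses into each other. Its probes differed in sign. A_73_106429, at the 3′ end (chromosome 5, 10564213 to 10564269, minus strand), had -0.33, -2.15, -0.43, 1.18 and 0.27 in Ladakhi, against 0.57 to 0.90 (median 0.75) in Sahiwal. The Ladakhi values were scattered over 3.33 log2 units around a tight Sahiwal group with a range of 0.33, and the difference of -1.04 (SE 0.45) did not pass (limma adjusted p = 0.0751). Without Ladakhi animal 4 it was -1.41 and passed (limma adjusted p = 0.0151), and with all arrays it passed under the 4 alternatives named above. A_73_P040646, 278 bases upstream, had -1.76, -2.61, -1.98, -2.11 and -1.87 in Ladakhi, against -3.50 to -2.52 (median -2.66) in Sahiwal. It passed with a difference of 0.77 (SE 0.28, limma adjusted p = 0.0385), with Ladakhi animal 2 inside the Sahiwal range. This call was lost without Ladakhi animals 1, 3, 4 and 5 and Sahiwal animals 2, 3 and 6, each left out alone (adjusted p up to 0.0862). The third probe was above background on 0 Ladakhi arrays.

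GAPDH encodes glyceraldehyde-3-phosphate dehydrogenase and is often used as a reference gene on arrays and in PCR. It had 8 probes, 7 of them measured, and 2 were higher in Ladakhi while 5 did not pass. A_73_100172, its brightest (chromosome 5, 10853542 to 10853601, minus strand), had 2.92, 3.21, 2.86, 2.93 and 2.66 in Ladakhi, against 1.32 to 2.25 (median 1.98) in Sahiwal. Every Ladakhi array lay above every Sahiwal array, and the difference was 0.995 (SE 0.26, limma adjusted p = 0.00806), or 1.99-fold. As 1 Sahiwal spot was saturated there, this is at most 1.99-fold, and under cyclic loess it was 0.67 and did not pass (limma adjusted p = 0.0577). A_73_P099681, 1874 bases upstream, had -3.05, -2.38, -2.67, -2.13 and -2.90 in Ladakhi, against -4.54 to -3.20 (median -3.72) in Sahiwal, again without overlap. Its difference was 1.13 (SE 0.30, limma adjusted p = 0.0079). Its Sahiwal mean of -3.76 lay below the mean Ladakhi detection limit, as at no other measured probe of the 10 genes, so it could be measured in both breeds only where Ladakhi was higher. The 5 other measured probes differed by -0.11 to 0.77. Among them A_73_P475903, which the array places on chromosome 1 and not on chromosome 5, was saturated on 3 Sahiwal arrays and had a difference of -0.06. It shares 36 bases with A_73_100172, with 3 mismatches, so signal of the GAPDH copies cannot be assigned to a single locus.

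Overlapping GAPDH probes that differ at a few letters gave different signals. A trio covers the same exon junction, with 4 or 5 mismatches between each pair over 54 to 57 aligned bases, and capitals mark every base at which a probe differs from another of its set.
GAPDH A_73_P195967, chr5:10854821-10854972, minus strand: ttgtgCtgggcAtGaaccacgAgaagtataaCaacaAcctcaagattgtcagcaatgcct
GAPDH A_73_P108926, chr5:10854818-10854969, minus strand: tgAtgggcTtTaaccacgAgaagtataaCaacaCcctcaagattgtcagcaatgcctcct
GAPDH A_73_P082516, chr5:10854824-10854974, minus strand: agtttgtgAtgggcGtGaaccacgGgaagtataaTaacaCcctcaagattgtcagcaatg
GAPDH A_73_P089951, chr5:10853755-10853916, minus strand: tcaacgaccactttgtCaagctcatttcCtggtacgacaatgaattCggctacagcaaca
GAPDH A_73_P060776, chr5:10853739-10853899, minus strand: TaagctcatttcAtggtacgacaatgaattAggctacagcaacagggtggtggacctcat
A_73_P108926 and A_73_P082516 were above background on all 5 Ladakhi arrays, with differences of -0.11 (SE 0.32) and 0.18 (SE 0.31), while A_73_P195967 was above background on 0 Ladakhi arrays. The pair further downstream overlaps by 44 bases with 3 mismatches. A_73_P089951 had 0.31, 1.55, 1.86, 2.17 and 1.94 in Ladakhi, against 0.21 to 1.1 (median 0.84) in Sahiwal, a difference of 0.77 (SE 0.34) that did not pass (limma adjusted p = 0.0837) but did without Ladakhi animal 1 (1.08, limma adjusted p = 0.0110). With all arrays it also passed under 5 alternatives, namely quantile normalization, normexp, no filter, dim signals raised and the slide as a random block (0.67 to 0.99). A_73_P060776 had -0.35, -1.91, -0.02, 0.45 and 0.40 in Ladakhi, against -1.29 to -0.16 (median -0.33) in Sahiwal, a difference of 0.21 (SE 0.41). The 2 probes stood apart by 0.66 to 3.46 within a Ladakhi array and by 1.04 to 1.50 within a Sahiwal array.

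PGK1, phosphoglycerate kinase, makes the first ATP of the lower pathway. The array places its 3 probes on an unassigned sequence. A_73_P399430, nearest the 3′ end, had -1.05, -1.34, -0.59, -0.11 and -0.22 in Ladakhi, against -1.17 to -0.01 (median -0.80) in Sahiwal, and the groups overlapped almost fully (difference 0.06, SE 0.31). A_73_P050408, 2049 bases upstream, was above background on 2 Ladakhi arrays and had -4.08, -4.0, -3.53, -3.51 and -2.53 in Ladakhi, against -2.92 to -1.31 (median -2.10) in Sahiwal. It was lower by limma (difference -1.42, SE 0.35, adjusted p = 0.00546), and by -1.05 with dim signals raised. A_73_P352526, 9169 bases upstream of the 3′ probe, was above background on 0 Ladakhi arrays. Its mean level was -4.92 in Ladakhi, from signals not above background and only in part surrogates, against -3.25 in Sahiwal. Set against the Ladakhi detection limits it was at least 1.27-fold lower in Ladakhi, a bound without a test of its own. The limma adjusted p of 0.00425 belongs to the difference of -1.67 with these Ladakhi signals included.

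PGAM1, phosphoglycerate mutase, moves the phosphate group of phosphoglycerate. A_73_115122 (chromosome 26, 20640453 to 20640512, minus strand) had -2.22, -1.88, -1.29, -0.95 and -0.96 in Ladakhi, against -0.15 to 0.62 (median 0.23) in Sahiwal. Every Ladakhi array lay below every Sahiwal array, and the difference was -1.69 (SE 0.31, limma adjusted p = 0.000996), a 3.24-fold lower signal. The other 2 measured probes did not pass. A_73_P494373, which ends 42 bases downstream of it in 6 A bases, had -0.16, -0.48, -1.29, 0.44 and 0.04 in Ladakhi, against -0.89 to -0.25 (median -0.54) in Sahiwal (difference 0.28, SE 0.32). The position that the array gives for this probe of 60 bases covers only 6 bases. Its place as the 3′-most PGAM1 probe rests on that position. A_73_P452296, farther upstream, had -1.34, -1.56, -1.47, -0.46 and -1.18 in Ladakhi, against -1.75 to -1.36 (median -1.42) in Sahiwal (difference 0.30, SE 0.27). The fourth probe was above background on 0 Ladakhi arrays.

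ENO1, enolase, makes phosphoenolpyruvate. Of the 10 genes it had the widest gap between measured probes of a single gene. A_73_P286876 (chromosome 16, 41650645 to 41650704, plus strand) had 2.74, 2.35, 2.64, 0.02 and 1.84 in Ladakhi, against 1.59 to 1.93 (median 1.80) in Sahiwal. The Ladakhi values lay on both sides of the Sahiwal group, and the difference of 0.14 (SE 0.42) did not pass. A_73_P251276 shares 49 identical bases with that probe and ends in 6 A bases. It had -3.65, -0.46, -1.01, -0.68 and 0.71 in Ladakhi, against 1.37 to 2.14 (median 1.48) in Sahiwal. All Ladakhi values lay below the Sahiwal values, and that of animal 1 was not above background. The difference was -2.60 (SE 0.57, limma adjusted p = 0.00283), or -2.53 with that signal raised to the array's detection limit, and it ran from -3.04 to -1.95 on leaving out each array in turn. Within an array the first probe minus the second gave 6.39, 2.80, 3.66, 0.70 and 1.13 in Ladakhi, against -0.21 to 0.45 (median 0.25) in Sahiwal. The probes thus stood close together on every Sahiwal array and apart on every Ladakhi array. Of the 3 probes toward the 5′ end, A_73_P394271 was above background on 1 Ladakhi array (difference -0.86, SE 0.44, not passed, and -1.22 with limma adjusted p = 0.0278 without Ladakhi animal 4) and 2 on 0. A_73_P051406, one of these, was at least 1.03-fold lower in Ladakhi against the detection limits, a bound near equality. Its mean levels were -4.95 in Ladakhi, from signals not above background, and -3.56 in Sahiwal. The limma adjusted p of 0.00153 belongs to that difference of -1.40.

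**Figure D2:**
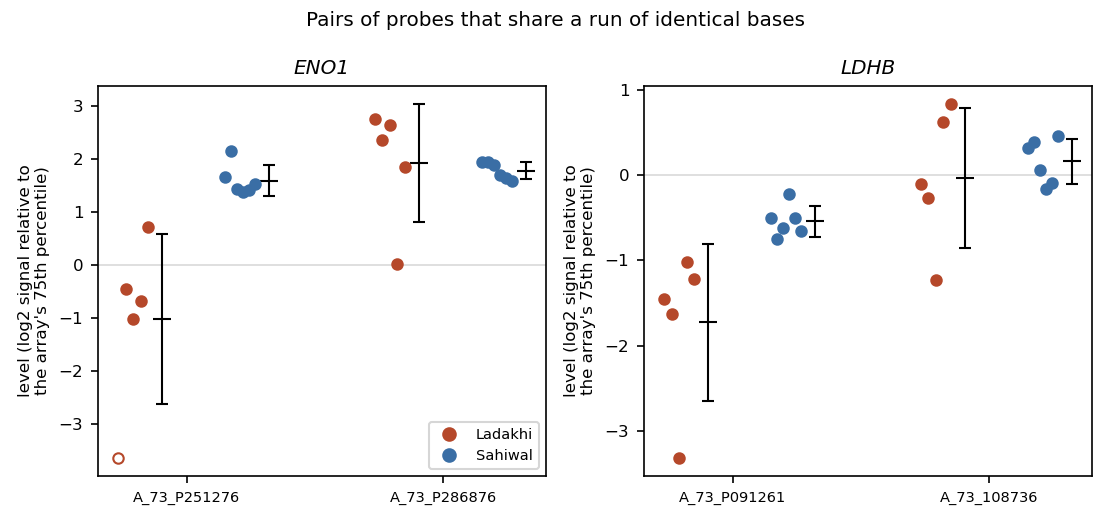
Levels (log2 signal relative to the array's 75th percentile, vertical axis) of a pair of ENO1 probes that share 49 identical bases and a pair of LDHB probes that share 38, Ladakhi left of Sahiwal for each probe. Each point is an array, open where the spot was not above background, with the mean and SD beside it. Ladakhi lies below Sahiwal without overlap at A_73_P251276 and A_73_P091261 and on both sides of Sahiwal at their partners.

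PKM encodes pyruvate kinase, which makes pyruvate and ATP. Its form M2 is the usual one in leukocytes, and the M1 form of muscle comes from an alternative exon of the same gene. A_73_100498, at the 3′ end (chromosome 10, 19413957 to 19414016, plus strand), had 0.74, 1.0, 1.06, 0.48 and 0.39 in Ladakhi, against -2.40 to -1.27 (median -1.55) in Sahiwal. Both groups were tight and far apart. The difference of 2.40 (SE 0.29, limma adjusted p = 7.69e-05), or 5.28-fold, was the highest among the 26 probes. It stayed between 2.26 and 2.49 on leaving out each array in turn, and of the 26 it alone passed a test against a log2 difference of 1. No second PKM probe checked it, since the other 3 were above background on 0 Ladakhi arrays. Of these, A_73_P321636, 651 bases upstream, was above background on all 6 Sahiwal arrays at a mean level of -6.24, and A_73_P372681 on 4 at -7.42, both below the Ladakhi detection limit. A_73_P100636, whose letters, read with the exon structure known for PKM, include M1 exon sequence, was above background on no array of either breed. It is shown with A_73_P321636, whose letters lie in coding sequence common to both forms, and neither has a base in capitals as they do not overlap.
PKM A_73_P100636, chr10:19409809-19412201, plus strand: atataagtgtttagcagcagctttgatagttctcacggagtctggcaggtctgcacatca
PKM A_73_P321636, chr10:19412366-19413365, plus strand: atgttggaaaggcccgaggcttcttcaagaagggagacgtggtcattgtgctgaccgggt

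**Figure D3:**
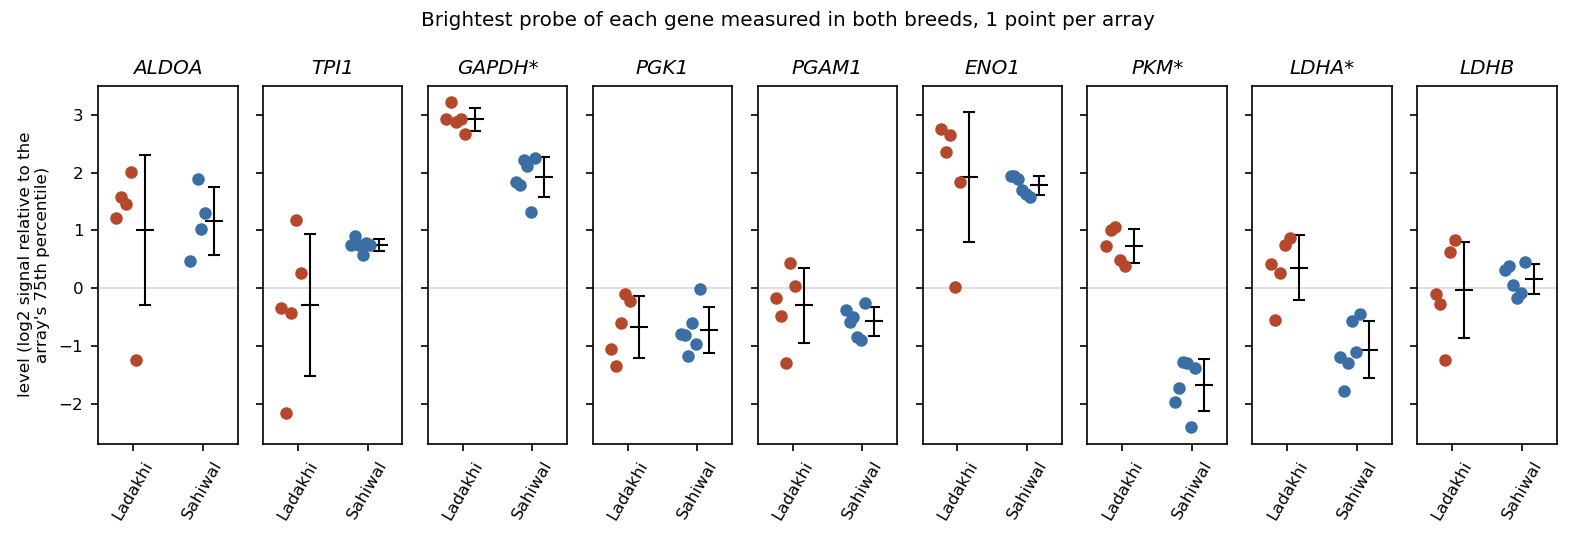
Levels (log2 signal relative to the array's 75th percentile, vertical axis) of the brightest measured probe of each of the 9 genes with one, with a point per array and the mean and SD beside the points; an asterisk marks an adjusted p under 0.05. GAPDH and PKM are separated between the breeds, while ALDOA, TPI1 and ENO1 show a Ladakhi array far below the others. Levels of different genes cannot be compared, as each probe has its own response.

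LDHA, the chain that predominates in muscle, had 3 probes. A_73_P269751 (chromosome 29, 27560789 to 27560848, minus strand) had 0.43, -0.55, 0.26, 0.75 and 0.88 in Ladakhi, against -1.77 to -0.44 (median -1.15) in Sahiwal. Only Ladakhi animal 2 lay within the Sahiwal range, and the difference was 1.41 (SE 0.33, limma adjusted p = 0.0045), or 2.66-fold. It kept its call on leaving out any array (1.27 to 1.64, adjusted p up to 0.0124). A_73_119375, 124 bases downstream, had -1.33, -2.83, -0.51, -0.13 and 0.10 in Ladakhi, against -2.47 to -1.10 (median -1.67) in Sahiwal. Its difference of 0.75 (SE 0.48) did not pass, with Ladakhi animal 2 below the lowest Sahiwal value. Without that array it was 1.22 and passed (limma adjusted p = 0.0211). The third probe, A_73_P362966, is on the coding sequence across an intron and was above background on 2 Ladakhi arrays (difference 0.16, SE 0.49, not passed). With dim signals raised it was 0.92 (limma adjusted p = 0.0124) and with normexp 1.1 (limma adjusted p = 0.00141), but its Sahiwal mean of -3.96 lay below the mean Ladakhi detection limit, so raised signals could hardly give a lower Ladakhi value. It is shown with the 2 coding-sequence probes of LDHB described next.
LDHA A_73_P362966, chr29:27564148-27564869, minus strand: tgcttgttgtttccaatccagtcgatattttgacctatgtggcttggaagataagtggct
LDHB A_73_P298736, chr5:94982263-94982322, plus strand: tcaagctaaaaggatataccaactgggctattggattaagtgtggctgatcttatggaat
LDHB A_73_P100116, chr5:94982345-94983675, plus strand: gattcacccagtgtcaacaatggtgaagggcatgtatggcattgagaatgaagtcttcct

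LDHB, the chain of the heart, was not higher at any of its 4 measured probes. A_73_108736, the brightest (chromosome 5, 94983930 to 94983989, plus strand), had -0.10, -0.27, -1.23, 0.63 and 0.84 in Ladakhi, against -0.16 to 0.46 (median 0.19) in Sahiwal, a difference of -0.19 (SE 0.35). A_73_P091261 overlaps it with 38 identical bases and had -1.45, -1.63, -3.32, -1.01 and -1.22 in Ladakhi, against -0.75 to -0.21 (median -0.56) in Sahiwal. The breeds did not overlap, and the difference of -1.19 (SE 0.37, limma adjusted p = 0.0201) was lower by 2.28-fold. This call was lost under quantile normalization (-0.93, adjusted p = 0.0527) and under cyclic loess (-1.06, adjusted p = 0.0571). The probes on the coding sequence, A_73_P298736 and A_73_P100116, were above background on 4 Ladakhi arrays each and differed by -0.33 (SE 0.38) and -0.41 (SE 0.79), without passing. Both signs rested on Ladakhi animal 2, not above background at either probe, and turned without it (0.05 and 0.65, neither passed). The fifth probe has no position on the array's build and was above background on no array.

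Because LDHA and LDHB form the same enzyme, the difference between them was taken within each array, where it does not depend on scaling between arrays. LDHA minus LDHB, by the brightest measured probe of each, was 0.53, -0.28, 1.49, 0.13 and 0.03 on the Ladakhi arrays, against -2.16 to -0.40 (median -1.18) on the Sahiwal arrays. Every Ladakhi array lay above every Sahiwal array. The Ladakhi mean was 0.38 ± 0.69 (SD, n = 5), against a Sahiwal mean of -1.22 ± 0.60 (SD, n = 6). They differed by 1.60, or 3.04-fold in the ratio of LDHA to LDHB signal (exact two-sided permutation test, p = 0.00433, the smallest that 5 arrays against 6 can give). All 8 pairs of an LDHA with an LDHB probe gave a positive difference, from 0.94 to 2.60. This sign follows from the single probes, as each measured LDHA difference was positive and each LDHB difference negative. The pairs share probes and arrays and are not separate checks. Without overlap between the breeds were 4 of the pairs, where 21.7% of single measured probes of the array were without overlap. How often pairs of other probes separate the breeds was not counted, so whether this contrast is unusual on these arrays was not tested. At 4 of the 8 pairs Ladakhi animal 2 was not above background at the LDHB probe, and without that animal the 8 pairs gave 0.57 to 2.85. The contrast shows that the breed difference was unequal at the LDHA and LDHB probes, and not at which of them the RNA differed. Labelled altitude, slide, scanner and extraction version went with breed here as well and cannot be told apart from it.

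**Figure D4:**
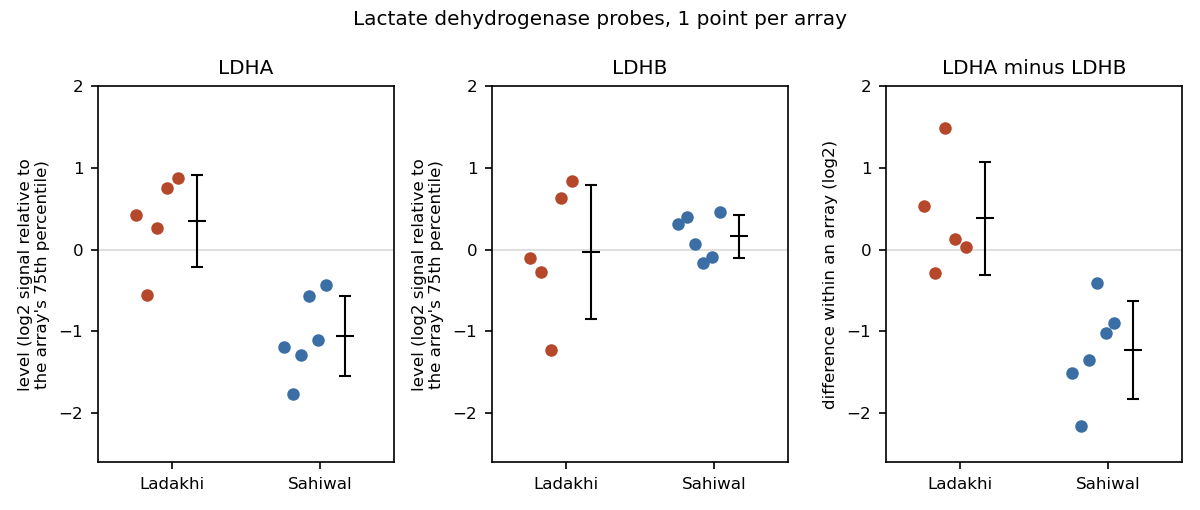
Level of the brightest LDHA probe and of the brightest LDHB probe (log2 signal relative to the array's 75th percentile) and their difference within an array (log2), with a point per array and the mean and SD beside the points. The difference runs from -0.28 to 1.49 on the Ladakhi arrays and from -2.16 to -0.40 on the Sahiwal arrays.

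Whether a probe of these genes was seen in Ladakhi went with its Sahiwal level, and its place in the gene went with that level. Of the 42 probes, 39 were above background on all 6 Sahiwal arrays. Among these, 9 were above background on 0 Ladakhi arrays, where the same held for 49.1% of the 15096 such probes of the array. Of the 12 probes on 0 Ladakhi arrays in all, 10 had a Sahiwal mean below the mean Ladakhi detection limit and so no fold change was taken. Of the probes above background in Sahiwal, those nearest the 3′ end of their gene were measured in both breeds in 9 of 10 cases, and the others with a position in 16 of 29. Over all genes with several mapped probes, 29.9% of the 3′-most probes above background in Sahiwal were measured in both breeds, and 18.2% of the others. These counts do not take the Sahiwal level into account. All 10 of the 3′-most glycolytic probes had a Sahiwal mean above the mean Ladakhi detection limit, while several of the others did not. Place and level cannot be told apart here. The part of the place in the gene in the breed differences was not tested.

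**Figure D5:**
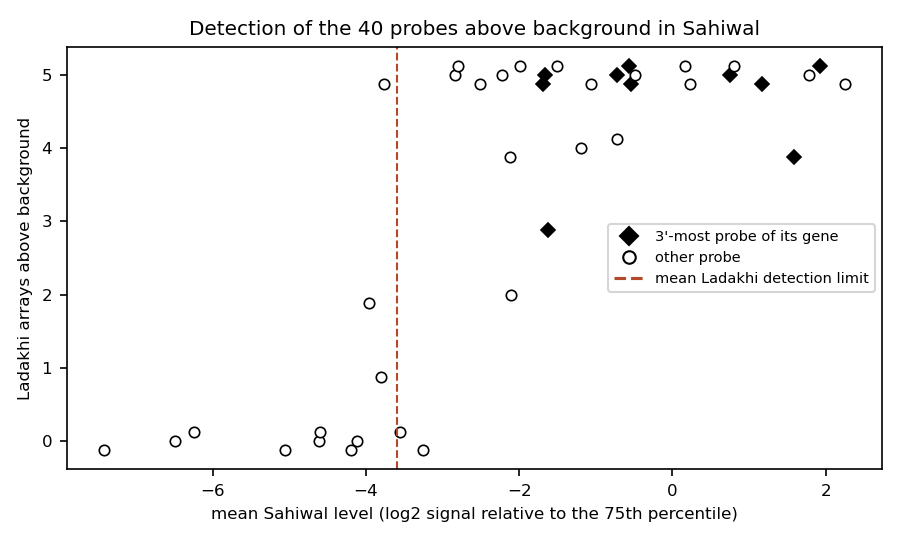
Number of Ladakhi arrays above background (vertical axis, points shifted slightly to keep them apart) against the mean Sahiwal level (log2 signal relative to the array's 75th percentile) for the 40 probes above background on at least 4 Sahiwal arrays. Filled diamonds are the 3′-most probes of each gene, and the dashed line is the mean Ladakhi detection limit of -3.60. All 10 diamonds lie to its right, 8 of them at 5 Ladakhi arrays.

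The Ladakhi values were more scattered. Over the 26 measured probes the median SD was 0.69 in Ladakhi and 0.37 in Sahiwal, and the Ladakhi SD was the larger at 21. Over all measured probes the medians were 0.55 in Ladakhi and 0.38 in Sahiwal, and the Ladakhi SD was larger at 66.8%. The scatter was not shared by all probes. The ALDOA probe that passed, the GAPDH probe A_73_100172 and the PKM probe had SDs of 0.12, 0.20 and 0.30 in Ladakhi, while other probes of ALDOA (A_73_100160) and GAPDH (A_73_P060776) had 1.29 and 0.97.

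The genes whose pattern over the 11 arrays was most like that of LDHA were sought among 2978 genes, by Pearson correlation of their brightest unsaturated measured probe with a value on all 11 arrays with the LDHA probe after each breed's mean was subtracted. They were PILRA, an inhibitory receptor of myeloid cells (r = 0.94), PLA2G7, a phospholipase made by monocytes and macrophages (0.94), TC413237, a transcript without a gene symbol (0.93), PNP, purine nucleoside phosphorylase (0.92), and IRF9, a subunit of the interferon-activated factor ISGF3 (0.92). Among the glycolytic genes, PGK1 stood at place 44 (r = 0.79) and ENO1 ran the other way (r = -0.42). TPI1 (0.62), PGAM1 (0.35), LDHB (0.33), GAPDH by A_73_P089951 (0.21) and PKM (-0.09) lay between. Within the breeds, TPI1 had 0.94 in Ladakhi and -0.76 in Sahiwal, and PKM had -0.82 in Ladakhi and 0.35 in Sahiwal. ALDOA stood at place 14 (r = 0.86) by A_73_P452731, and its brightest probe A_73_100160, without a value on 2 Sahiwal arrays, was not ranked. These are descriptions of 11 arrays that each share a labelling reaction and a slide.

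Neighbouring steps of the pathway, chosen as lists with earlier results of these data known, are given by the brightest measured probe of each gene, beside the 32.7% of all measured probes that passed. Of 14 genes of glucose uptake and upper glycolysis, 7 were measured, with PFKL, a phosphofructokinase chain, higher (difference 0.81, SE 0.28), PFKFB3, which makes the activator of phosphofructokinase, lower (-2.76, SE 0.62), and 5 that did not pass, though a second probe of the glucose transporter SLC2A3 was lower (-3.47, SE 0.43) (median difference -0.35, against -0.02 over all measured probes). Of 17 genes of lactate and pyruvate transport and pyruvate entry into mitochondria, 5 were measured and only PDK2, a kinase that inhibits pyruvate dehydrogenase, passed (1.56, SE 0.29, list median -0.57). Of 9 genes of the NADH shuttles 3 were measured and MDH2, mitochondrial malate dehydrogenase, was lower (-0.81, SE 0.26, list median -0.19). Of 12 other HIF targets only MXI1 was measured, and it was lower (-1.18, SE 0.39). Among 9 common array reference genes, 6 were measured and none passed by its brightest probe (list median -0.24), although ACTB, B2M and RPLP0 had saturated Sahiwal spots. Among their other probes, 2 of ACTB were lower (-2.49 and -1.44) and 1 of PPIA was higher (1.31). Of 10 isoform genes of muscle, liver, brain and testis, only GAPDHS, the sperm form of GAPDH, was measured (0.47, not passed).

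Some markers of the blood cell types differed between the breeds on the same arrays. The calls are again by the brightest measured probe of each gene, beside the 32.7% of all measured probes that passed. Bulk signal cannot tell fewer cells of a type from less RNA per cell. Of 6 T cell markers 3 were measured, with CD2 higher in Ladakhi (2.46, SE 0.30) and CD3G and CD3D not passed (list median 1.08). Their mean level per array was -2.79 to -1.54 for Ladakhi, against -4.18 to -2.81 for Sahiwal. The Sahiwal mean of CD2 (-5.22) lay below the Ladakhi detection limit, so CD2 could be measured in both breeds only where Ladakhi was higher. The mean levels of the T cell list include it. By themselves CD3G differed by 0.28 (SE 0.33) and CD3D by 1.08 (SE 0.65). Of 6 monocyte markers 4 were measured, with LYZ (-1.81, SE 0.44), SPI1 (-1.36, SE 0.36) and FCGR3A (-1.25, SE 0.47) lower and CSF1R not passed (list median -1.31). Their mean level per array was -1.85 to -0.79 for Ladakhi, against -0.90 to 0.69 for Sahiwal. The monocyte markers not measured were CD68, on 0 Ladakhi arrays, and CD14, on 1. Markers on 0 Ladakhi arrays were 1 of 6 in this list, 1 of 6 for T cells and 2 of 6 for cytotoxic cells. Of 6 cytotoxic cell markers 3 were measured, with GNLY higher (1.69, SE 0.51) and NKG7 (1.16, SE 0.49) and GZMB (-0.48, SE 0.60) not passed. Of 6 markers each of granulocytes, red cells and platelets a single one was measured, S100A12, HBB and PF4, and none passed by its brightest probe. That of S100A12 (-0.64, SE 0.37) was saturated on 2 Sahiwal arrays, while its other 2 measured probes gave -2.87 (limma adjusted p = 0.0131) and -1.05 (not passed). The granulocyte marker CSF3R was above background on 6 Sahiwal arrays and on 0 Ladakhi arrays. Of the array's probes on all 6 Sahiwal arrays, 49.1% were on 0 Ladakhi arrays. LTF, on 5 Sahiwal arrays and 0 Ladakhi arrays, falls outside that share. The other unmeasured granulocyte markers were on at most 1 Ladakhi array and at most 2 Sahiwal arrays. The part of cell composition in the glycolytic differences was not tested.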

How the data were processed

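Feature Extraction made the deposited intensity values: per the file headers they are background-subtracted Cy3 signals of single-colour Agilent arrays (version 12.0.1.1 for Ladakhi, 9.5.3.1 for Sahiwal). Some of the spots not above background carry a surrogate, while others keep a dim signal of their own. A second deposited file, a series-wide log2 table in which each probe has a median of 0, came from the authors with its scaling unstated and was an alternative here. The median of its columns was 1.60 to 2.32 for Ladakhi, against -0.73 to 0.00 for Sahiwal. Its columns matched other arrays of the same breed than those they name, so animal numbers are those of the scanner files and are unsettled.

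Control spots and 294 spots marked as outliers were dropped, replicate spots averaged and saturated spots kept. Processed signals were put on the log2 scale, and from each array the 75th percentile of the 2703 probes found on all arrays was subtracted. Ladakhi and Sahiwal were set against each other by limma 3.58.1 (lmFit, eBayes, R 4.3.3) over probes that passed the background test on 4 or more arrays in Ladakhi or in Sahiwal. A bound sets the Sahiwal mean against the mean, over the Ladakhi arrays, of the higher of the probe's signal and the array's detection limit. The test was checked on simulated normal data with equal spread in both breeds and no detection limit. These arrays differ in both respects, so the check does not cover them fully. The number of arrays limits the precision.

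Members, gene lists and tests were chosen with earlier results of these data known. All probes of the 10 genes are reported, and of the lists those measured and passed. Reference genes with saturated spots, GAPDHS, markers that did not pass and further probes of listed genes were named after their values were seen. For genes of the lists the brightest measured probe stands for the gene. The RefSeq gene table (assembly ARS-UCD2.0) matched accessions of 26740 probes and gave names but no coordinates. Probe sequences are those of the deposited array files. Arrays of the breeds with the same number did not deviate together (correlations from -0.05 to 0.02), so numbers do not pair samples. Some members of the lists and some probe sequences are not reported here.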

Additional observations from a re-analysis of the deposited data

Results flagged for a closer look

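Among 54 sets of values checked (each measured probe and the LDHA minus LDHB contrast in each breed), 7 held an array that stood apart from the rest of its breed by Dixon's criterion. Chance marks about 1 in 20, or 2.7 of 54. In Ladakhi, animal 5 was low at ALDOA A_73_100160 (-1.24, the others 1.22 to 2.01) and animal 3 at LDHB A_73_P091261 (-3.32, the others -1.63 to -1.01). Ladakhi animal 2 was low at LDHB A_73_P100116 (-5.35, the others -0.32 to 0.23), with a signal not above background there. In Sahiwal, animal 5 was low at GAPDH A_73_P060776 (-1.29, the others -0.58 to -0.16) and at GAPDH A_73_P082516 (-3.02, the others -2.26 to -1.87), animal 3 was low at LDHB A_73_P298736 (-1.64, the others -1.24 to -1.03), and animal 2 was high at ENO1 A_73_P251276 (2.14, the others 1.37 to 1.65).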

How the results depend on the processing

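The 6 higher and 3 lower probes were 4 to 6 and 3 to 4 on leaving out each array in turn, and the 1325 calls over all measured probes were 1133 to 1320. The LDHA minus LDHB difference was 1.33 to 1.77 in the same runs. A test against a log2 difference of 1 left 1 higher (PKM) and 0 lower probes, with 110 calls over all measured probes. Normexp background correction gave 8 higher and 4 lower, with 2039 calls over all, and turned ENO1 A_73_P394271, on 1 Ladakhi array, to 0.85 (adjusted p = 0.0110, and 0.59 with adjusted p = 0.0695 relative to the shift of all probes). The cause was not tested. Scalings that moved the median of all measured probes changed the split of the 733 higher and 592 lower calls: quantile normalization (median 0.17) gave 1041 and 345, with 7 and 2 glycolytic probes, or 6 and 3 relative to that median. Cyclic loess (0.11) gave 840 and 394, with 5 and 2, or 5 and 3 relative to it. Normexp (0.27) gave 1443 and 596, and 6 and 4 glycolytic probes relative to it. Probes detected on all 11 arrays (0.15), 22 of the 26, gave 6 and 2, or 5 and 3 relative to it, with 710 and 386 over all. The replicate block, whose numbers do not pair the arrays, gave 4 higher and 3 lower, and for LDHA minus LDHB 1.67 (exact sign-flip test, p = 0.0625, the smallest that 5 numbers allow, all 5 positive). The animal number as a block thus changed the calls of ALDOA A_73_P255085 and TPI1 A_73_P040646 only. Array weights gave 4 and 3 as well, with the same 2 calls lost (adjusted p = 0.0595 and 0.0510). The slide as a random block had an estimated correlation of -0.11 and gave 7 and 4, with 1734 calls over all measured probes against 1325. With no filter the counts were 7 and 4, with 1594 calls over all. Dim signals raised gave 7 and 4, with 1711 over all. Dim Ladakhi signal limits what can be seen: under the other scalings, the value table, saturated spots set missing and outlier-marked spots kept, the counts were 6 and 3.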
